A study of Serinus canaria and Ploceus bicolor and Uraeginthus cyanocephalus with 155 samples.

Results

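In non-breeding female canaries that sang spontaneously, a group of 120 transcripts had higher levels than in non-singing females in HVC and also in the entopallium, and their difference between testosterone-implanted and non-singing females in HVC was under 0.3 on the log2 scale. The group was defined by these differences, which are therefore described here and not tested. Transcripts were eligible when their mean log2 level was at least 6 in HVC of non-breeding non-singing females and when the testosterone difference in female HVC was under this limit. Of 26061 transcripts, 19839 reached this level and 19093 met both conditions. For these, spontaneously singing minus non-singing females was computed in both brain areas, and the 120 with the highest lower value of the 2 differences were kept, which is 0.629% of the eligible transcripts.

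The levels came from 155 exon arrays of songbird brain tissue, each from a bird and a dissected area, of canaries, forest weavers and blue-capped cordon-bleus. All canaries were adults, with no age given in the labels beyond that. The non-breeding canaries lived on short days and comprised females that sang spontaneously without treatment, females and males that sang after testosterone implantation, and untreated males and females that did not sing. The breeding canaries lived on long days without treatment and comprised females that did not sing and males that sang. Every group had 6 arrays in HVC and 6 in the entopallium, except for the non-singing females with 5 in the entopallium. The molecular layer of the cerebellum was measured in 6 birds of each sex of the untreated breeding and non-breeding canaries. For the testosterone-implanted birds a treatment field of the labels says no treatment, and their other labels and the study's methods, which say testosterone, were followed. The study lists 5 non-singing females for HVC, whereas 6 arrays carry this label and all were used. Singing went together with day length in the breeding males and with the implant in the testosterone groups. By the study's methods, breeding canaries lived in pairs, whereas non-breeding ones were kept singly in boxes while song was monitored. The study also reports more plasma androgen in breeding males than in non-breeding males that did not sing. These factors cannot be told apart there. By the labels of their state, spontaneous singers and non-singing females differed only in song. The study describes more androgen in the plasma of spontaneous singers, citing its earlier report, and took these birds from an earlier monitoring of song. In its supplement their mean androgen was slightly above that of non-singing females, with no test between these groups. No batch is named in the labels, and the bird numbers of these groups run in separate series. Song, androgen, the set of birds and its arrays therefore cannot be told apart in this comparison.

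HVC is a premotor nucleus of the song control system that drives the timing of song, and it carries androgen receptors. The entopallium is the visual area of the avian pallium, which receives thalamic input and does not belong to the song control system. In canaries, the long days of spring raise testosterone and song in males, and testosterone makes females sing that otherwise rarely do so. The identifiers are not paired with gene names in the files, and 0 of them matched the 17915 genes of the canary reference table, so the functions of the 120 transcripts, markers of the dissected tissue and of its cell types, and their sequences are not given. Since whole tissue was measured, fewer cells of a type and less RNA per cell cannot be told apart.

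The arrays differed little in their median level, but the low end of the arrays of spontaneous singers stood apart. The 1st percentile of the log2 levels was 3.18 to 3.43 in the 12 arrays of spontaneous singers and 2.63 to 3.03 in the 71 arrays of the other canaries in HVC and entopallium, whereas the array medians were 7.32 to 7.45 and 7.29 to 7.42. The difference between spontaneously singing and non-singing females had a median of 0.09 in HVC and 0.11 in the entopallium over all transcripts. After quantile normalisation these medians were 0.02 in both areas, and the median over the 120 transcripts was 0.60 in HVC and 0.62 in the entopallium, against 0.61 and 0.65 with the deposited levels. Quantile normalisation left 101 of the 120 in place when the selection was repeated. Among the HVC arrays, that of testosterone-implanted male replicate 1 had the lowest mean Spearman correlation with its own group, 0.969, with the next lowest at 0.978. The numbers of calls that rest on it are also given without it, whereas medians, levels, ranks and SDs of this group include it. Among the entopallium arrays, that of spontaneous singer replicate 3 had the lowest such correlation, 0.973, with the next lowest at 0.978. It entered the selection, and its 1st percentile of 3.43 and median of 7.45 were the highest of these arrays.

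The 120 transcripts had intermediate levels and were raised in both areas, as the selection required. Their mean log2 level in HVC of non-singing females was between 6.01 and 11.86, with a median of 7.28, against a median of 7.83 over the eligible transcripts. In HVC, the difference between spontaneously singing and non-singing females was 0.48 to 1.54, with a median of 0.61. In the entopallium it was 0.48 to 1.44, with a median of 0.65. The entopallium had the larger difference for 64 transcripts and HVC for 56, and for 17 the areas differed by over 0.3. The differences in HVC and in the entopallium had a Pearson correlation of 0.31 over the 120 and of 0.59 over all eligible transcripts. Both differences were at least 1 for 1 transcript, at least 0.7 for 17 and at least 0.5 for 97. The last transcript inside the selection had a lower value of 0.4792 and the first outside had 0.4790, so that the boundary does not mark a gap. The level did not order the transcripts, since it had a correlation of -0.07 with the lower difference over the 120.

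**Figure D1:**
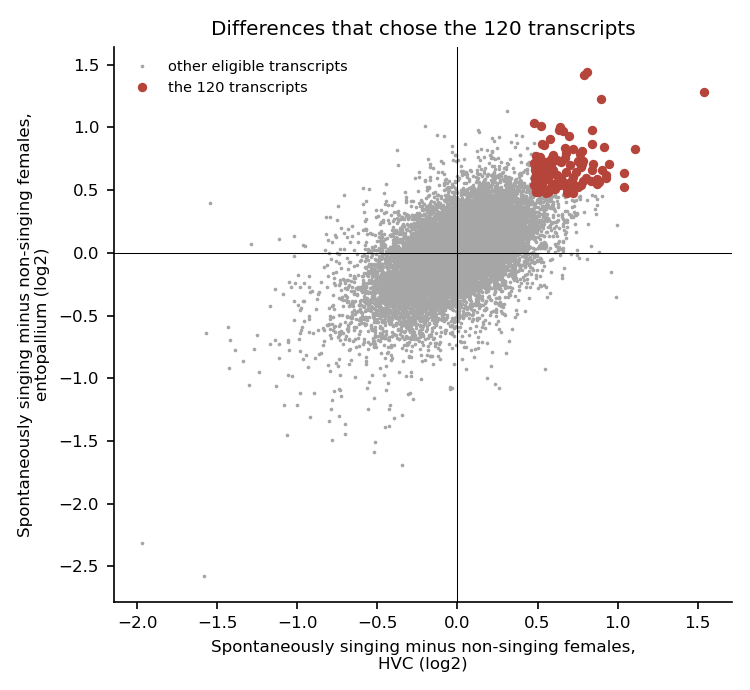
Each point is an eligible transcript, with the log2 difference of spontaneously singing minus non-singing females in HVC on the horizontal axis and in the entopallium on the vertical axis. The 120 transcripts (red) were chosen from these values and fill the upper right corner above 0.48 on both axes, whereas the other eligible transcripts (grey) spread around 0.

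Since these contrasts chose the transcripts, the counts of calls in them only describe the selection. With limma, 102 of the 120 had an adjusted p under 0.05 and a log2 difference of at least 0.5 in HVC, where 5.71% of all transcripts were called higher. In the entopallium this number was 103, where 4.37% of all transcripts were called higher. The values of all 6 spontaneous singers lay above those of all non-singing females for 71 transcripts in HVC (11.5% of all transcripts), for 69 in the entopallium (9.52%) and for 48 in both areas (3.47%). In HVC, 19 of the 120 also had all 6 spontaneous singers above each of the 36 other canary arrays of this area, where 1.64% of all transcripts did. In the entopallium, 3 had all 6 above each of the 35 other canary arrays, where 1.11% of all transcripts did.

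The transcript ranked first, ENSTGUT00000017796, was the only one with both differences of at least 1. In HVC of spontaneous singers its lowest, median and highest log2 levels were 7.55, 8.90 and 9.40, against 6.43, 7.29 and 7.83 in non-singing females. A single spontaneous singer, replicate 2, lay within the range of the non-singing females in HVC, and the other 5 lay above it. In the entopallium of spontaneous singers its levels were 8.33, 8.65 and 9.12, against 7.79, 7.16, 7.32, 8.16 and 6.54 in the 5 non-singing females, and the groups did not overlap. The mean differences were 1.54 in HVC and 1.28 in the entopallium. Its level varied widely in the other groups too, as in breeding males, where the HVC arrays spanned 6.47 to 8.97.

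The transcript ranked second, XM_002200500, had lowest, median and highest log2 levels of 7.73, 8.07 and 8.83 in HVC of spontaneous singers, against 6.71, 7.38 and 7.59 in non-singing females. In the entopallium these were 7.44, 8.04 and 8.49 in spontaneous singers, against 6.57, 6.79, 6.69, 6.51 and 7.40 in non-singing females. All spontaneous singers lay above all non-singing females in both areas, by a narrow margin in the entopallium. The mean differences were 0.90 and 1.23. In testosterone-implanted females its HVC level averaged 7.06 ± 0.16, against 7.27 ± 0.32 in non-singing females (SD, n = 6 each), and its entopallium level averaged 7.19 ± 0.21. In breeding females, which did not sing, its lowest, median and highest levels were 7.496, 7.82 and 8.12 in HVC and 7.04, 7.59 and 7.75 in the entopallium, so that these birds overlapped the spontaneous singers in both areas.

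**Figure D2:**
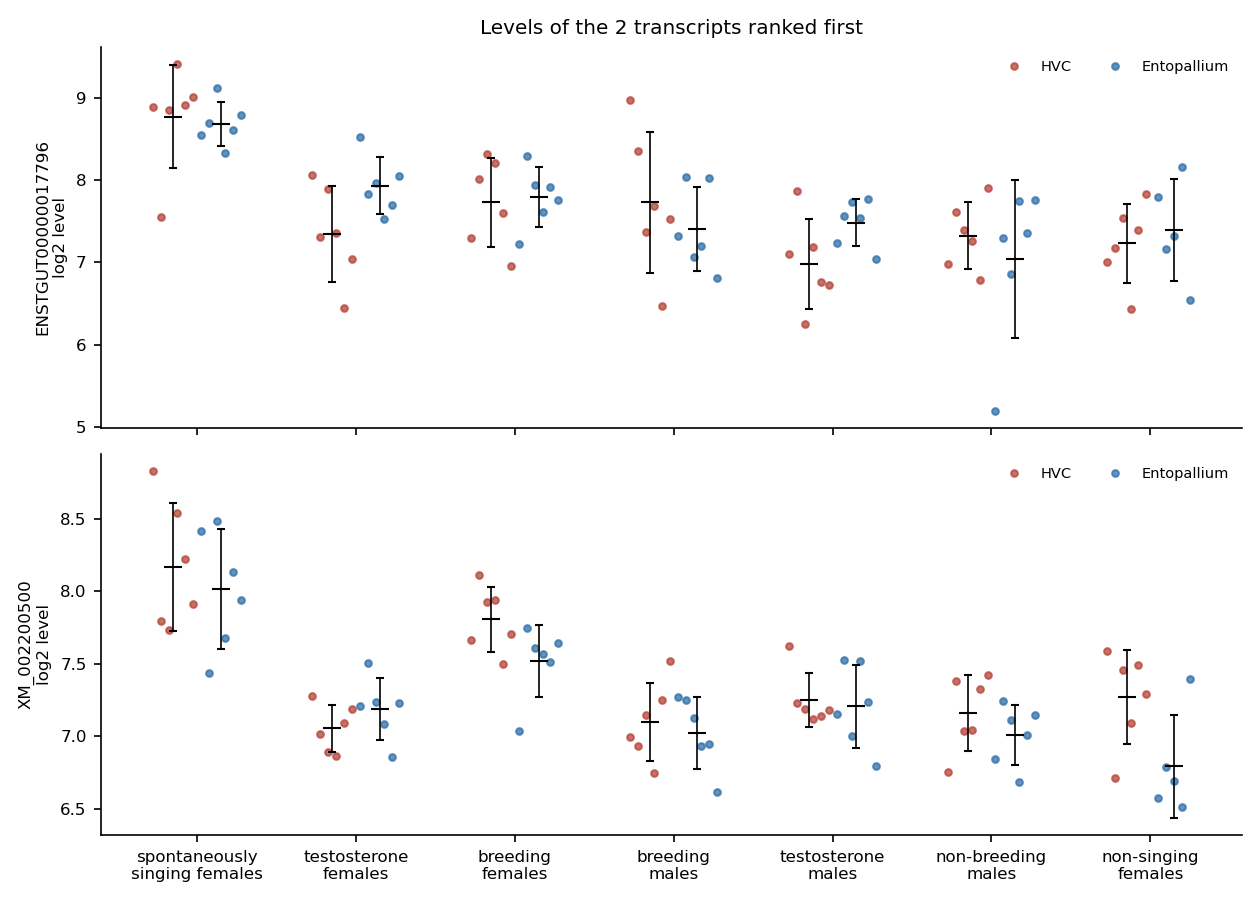
Log2 levels of ENSTGUT00000017796 and XM_002200500 in each canary array of HVC (red) and entopallium (blue), with the mean and SD of each group in black. Spontaneous singers have the highest mean in both areas, but arrays of other groups overlap theirs, with HVC replicate 2 of ENSTGUT00000017796 at 7.55 apart from the others.

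Across the canary groups, the mean level of the 120 transcripts was well above all other groups in HVC of spontaneous singers, whereas in the entopallium it was graded. In HVC the lowest, median and highest arrays of spontaneous singers had means of 8.21, 8.27 and 8.38 on the log2 scale. Breeding females followed at 7.82, 7.86 and 7.89. The remaining 5 groups lay between 7.55 and 7.79, below all breeding females. Among these 5, breeding males lay above non-singing females by under 0.01, and all other pairs of groups overlapped.

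In the entopallium, spontaneous singers again had the highest means, with 8.31, 8.41 and 8.51 in the lowest, median and highest array. Testosterone-implanted females had 8.19, 8.23 and 8.30, breeding females 8.09, 8.14 and 8.22, and breeding males 7.92, 7.996 and 8.09. Testosterone-implanted males had 7.80, 7.82 and 7.92, non-breeding males 7.71, 7.80 and 7.84, and non-singing females 7.66, 7.74 and 7.80. Spontaneous singers did not overlap with any other group, and breeding males did not overlap with any other group either, although the margins to their neighbours were under 0.01. Testosterone-implanted females overlapped with breeding females, and testosterone-implanted males overlapped with non-breeding males, which in turn overlapped with non-singing females. In the cerebellum, all 24 arrays lay between 7.73 and 7.91. Spontaneous singers and non-singing females entered the selection in both areas, and testosterone-implanted females entered it in HVC, so that these levels are descriptions.

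**Figure D3:**
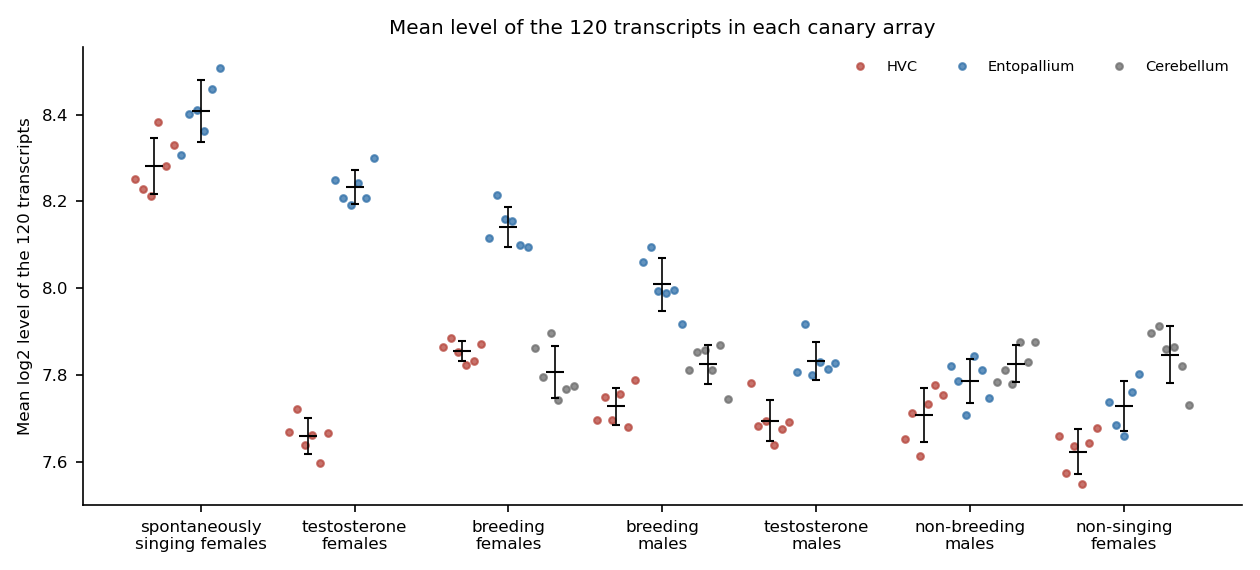
Mean log2 level of the 120 transcripts in each canary array of HVC (red), entopallium (blue) and molecular layer of the cerebellum (grey), with the mean and SD of each group in black. HVC arrays of spontaneous singers lie at 8.21 to 8.38 above all others of this area, whereas entopallium arrays form a gradient between 7.66 and 8.51.

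The group means of single transcripts were ranked within each area. The selection favoured high means in spontaneous singers and low means in non-singing females, and it limited testosterone-implanted females in HVC. The ranks of these groups only describe the selection. In HVC, 115 of the 120 had their highest group mean in spontaneous singers, and so did 39.9% of all transcripts. In the entopallium this number was 78, with 35% of all transcripts, and 29 had their highest mean in testosterone-implanted females, 9 in breeding females and 3 in breeding males, where these groups were highest for 15.8%, 11.2% and 7.77% of all transcripts. The lowest mean in HVC was in testosterone-implanted males for 43 transcripts and in non-singing females for 30, against 17.2% and 12.2% of all transcripts. In the entopallium it was in non-singing females for 41, in non-breeding males for 40 and in testosterone-implanted males for 30, against 20.1%, 10.1% and 14.9% of all transcripts.

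Breeding males were compared with non-breeding males, from which they differed in season, song, housing and plasma androgen. The comparison asked whether the 120 transcripts also differed between these birds, which had no part in the selection. In the entopallium, 16 of the 120 rose in breeding males and 1 fell (limma, adjusted p under 0.05 over all transcripts and a log2 difference of at least 0.5), where 0.660% of all transcripts were called higher and 0.353% lower. The median difference over the 120 was 0.22, against -0.02 over all transcripts, and 99 of the 120 had a difference above 0, as 44% of all transcripts did. All breeding males lay above all non-breeding males for 21 of the 120, against 3.76% of all transcripts. In HVC, 0 of the 120 were called, where 0.00384% of all transcripts were called higher and 0.0153% lower. An unadjusted p under 0.05 was found for 18 of the 120, with the share of all transcripts at this limit not given. The median difference over the 120 in HVC was 0.01, and the differences lay between -0.40 and 0.45.

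XM_002187182, the eighth of the 120 in rank, had the largest rise in breeding males. Its entopallium levels were 7.02, 7.25 and 7.56 in the lowest, median and highest breeding male, against 5.80, 5.95 and 6.49 in non-breeding males. The groups did not overlap, and the difference was 1.25 ± 0.12 (SE, adjusted p = 0.000163). In HVC its levels were 6.19, 6.56 and 6.93 in breeding males, against 5.63, 6.41 and 6.76 in non-breeding males, and the groups overlapped over most of their range. XM_002195870 had entopallium levels of 7.39, 7.63 and 7.95 in breeding males, against 6.67, 6.76 and 7.72 in non-breeding males, with a difference of 0.75 ± 0.16 (SE, adjusted p = 0.0102). A single non-breeding male reached into the range of the breeding males, and the others lay below it. XM_002187481, the last in rank, was the only one of the 120 to be called lower, by 0.61 ± 0.18 (SE, adjusted p = 0.0414). Its call was lost without any single one of breeding males 1, 2 and 6 or of non-breeding males 1, 2, 4, 5 and 6, with adjusted p-values of up to 0.0819.

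Whether the difference between breeding and non-breeding males was larger in the entopallium than in HVC was tested with an interaction term, which was added after the levels had been seen. For 12 of the 120, breeding minus non-breeding males was called larger in the entopallium, and for 0 it was called larger in HVC. Of all transcripts, 0.537% and 0.157% were called in these directions. The difference between the areas was 0.99 ± 0.24 for XM_002187182 (SE, adjusted p = 0.0238) and 0.89 ± 0.20 for XM_002195870 (SE, adjusted p = 0.0163). The median over the 120 was 0.18, against -0.01 over all transcripts. The breeding males of the 2 areas were different birds, whereas non-breeding males gave both areas. In breeding males the area therefore cannot be told apart from the set of birds, which a block for the bird does not change. With the bird as a random block, 13 of the 120 were called with the larger difference in the entopallium and 0 with the larger in HVC.

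Testosterone-implanted males, which also sang, were compared with the same non-breeding males, and few of the 120 transcripts passed both limits of a call. In the entopallium, 2 rose and 3 fell, where 0.426% of all transcripts were called higher and 1.06% lower, and the median difference over the 120 was 0.09, against -0.01 over all transcripts. At an adjusted p under 0.05 with no limit on the size, 24 of the 120 were higher and 15 lower. The share of all transcripts at this limit is not given, so that these counts cannot be set against it. Without testosterone-implanted male 3 or 4 or non-breeding male 2 the number called was 8, and without non-breeding male 1 it was 9. XM_002187182 rose here too, with levels of 6.53, 6.74 and 6.94 in testosterone-implanted males, against 5.80, 5.95 and 6.49 in non-breeding males, and a difference of 0.72 ± 0.11 (SE, adjusted p = 0.00153). These groups did not overlap. XM_002199654 fell, with levels of 7.28, 7.38 and 7.71 in testosterone-implanted males, against 8.04, 8.75 and 9.17 in non-breeding males, and a difference of -1.21 ± 0.16 (SE, adjusted p = 0.000793). XR_054396 fell by 0.83 ± 0.08 (SE, adjusted p = 9.48e-05), so that members of the group moved in opposite directions.

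In HVC of testosterone-implanted males, 5 of the 120 rose and 2 fell, where 0.695% of all transcripts were called higher and 0.491% lower. The median difference over the 120 was -0.06, against 0.02 over all transcripts. An unadjusted p under 0.05 was found for 40 of the 120, with the share of all transcripts at this limit not given. The number called was 3 without testosterone-implanted male 1, the array that stood apart, 4 without testosterone-implanted male 2, 3 or 4 or non-breeding male 2, 3 without non-breeding male 3 or 6, and 2 without non-breeding male 1 or 4. Among the 5 that rose, ENSMMUT00000024123 differed by 0.67 ± 0.12 (SE, adjusted p = 0.0148) and XM_002197361 by 0.64 ± 0.13 (SE, adjusted p = 0.0188). Each of them kept the call under 15 of 16 alternatives. XM_002187182 was among the 2 that fell, with HVC levels of 5.33, 5.61 and 5.92 in testosterone-implanted males, against 5.63, 6.41 and 6.76 in non-breeding males, and a difference of -0.68 ± 0.18 (SE, adjusted p = 0.0386). The groups overlapped at the lowest non-breeding male. This call was lost without any single one of testosterone-implanted males 1 to 4 or of non-breeding males 1, 3, 4 and 6, with adjusted p-values of up to 0.0841.

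**Figure D4:**
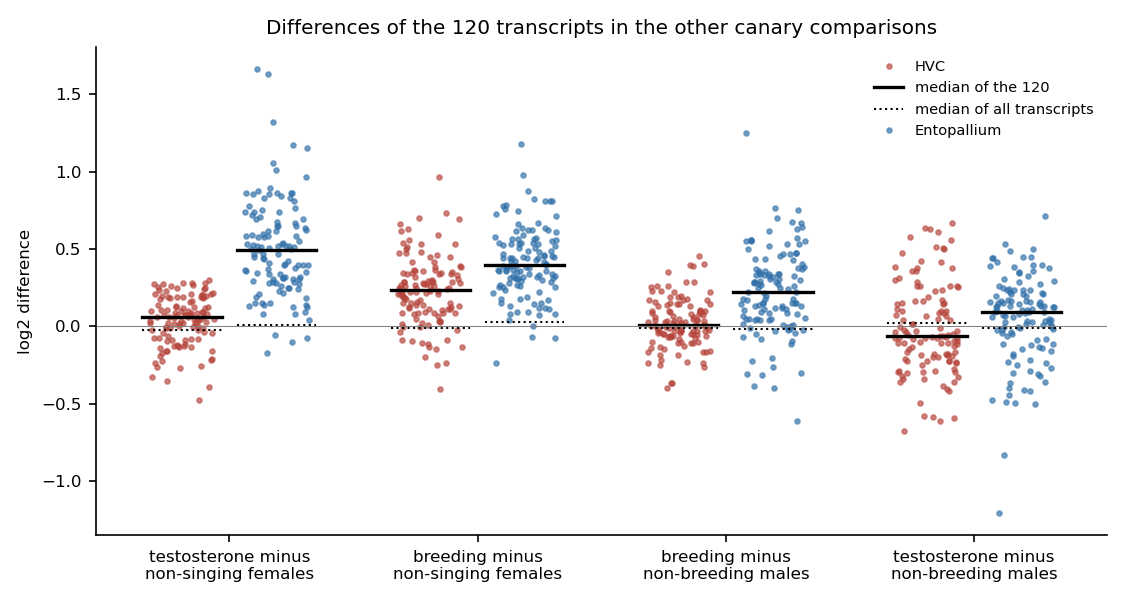
Each point is the log2 difference of a transcript of the 120 in HVC (red) or the entopallium (blue), with the median over the 120 as a solid line and the median over all transcripts as a dotted line. In the entopallium the medians of the 120 are 0.50, 0.39, 0.22 and 0.09 from left to right, whereas in HVC they are 0.06, 0.24, 0.01 and -0.06. HVC of testosterone-implanted females was limited to below 0.3 by the selection.

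In females, the comparisons with non-singing birds share their controls with the selection and are described without a test. Testosterone-implanted minus non-singing females had a median of 0.50 over the 120 in the entopallium, with 58 called higher, where 2.97% of all transcripts were called higher. In HVC the same comparison had a median of 0.06 over the 120, with 77 of them above 0, against a median of -0.03 over the eligible transcripts. The selection had removed transcripts with a difference of 0.3 or more. This limit lies below the 0.5 of a call, so that the selection itself set the number called higher to 0. Of all transcripts, 0.883% were called higher. None of the 120 was called lower. An unadjusted p under 0.05 was found for 27. At an adjusted p under 0.05 with no limit on the size, 5 were higher and 1 lower. These counts describe values that the selection had limited, and the share of all transcripts at these limits is not given. Breeding minus non-singing females had a median of 0.39 in the entopallium, with 38 called higher, where 1.38% of all transcripts were called higher. In HVC the median was 0.24, with 13 called higher, where 1.18% of all transcripts were called higher. Over all transcripts the medians of these 4 comparisons lay between -0.02 and 0.03. The differences of the 120 in the entopallium of testosterone-implanted against non-singing females and of breeding against non-breeding males, which have no array in common, had a Pearson correlation of 0.49 across transcripts, against 0.21 across all transcripts, and transcripts are not independent replicates.

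Testosterone-implanted females were also compared with testosterone-implanted males in the entopallium, since neither group had entered the selection in this area. The females had entered it in HVC, and 5 bird numbers are shared by their arrays of the areas. The females are therefore not birds apart from the selection. This comparison was added after the levels had been seen. In the females, 43 of the 120 were called higher and 2 lower than in the males, where 3.37% of all transcripts were called higher and 2.92% lower. The median difference over the 120 was 0.40, against -0.01 over all transcripts, and 109 of the 120 were above 0, as were 48.3% of all transcripts. All females lay above all males for 58 of the 120, against 9.12% of all transcripts. The 1st percentile of the arrays, which was high in spontaneous singers, was 2.63 to 2.77 in the females and 2.73 to 2.82 in the males.

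XM_002196611 had the largest difference of these, with entopallium levels of 8.19, 8.39 and 9.04 in testosterone-implanted females, against 6.46, 6.68 and 7.09 in testosterone-implanted males. The sexes were separated by more than the range within either, and the difference was 1.78 ± 0.15 (SE, adjusted p = 4.32e-06). Its entopallium levels were 7.28, 7.68 and 8.04 in spontaneous singers and at most 7.25 in non-singing females, so that testosterone-implanted females exceeded spontaneous singers for this transcript. ENSTGUT00000013882 had levels of 8.34, 8.84 and 9.09 in testosterone-implanted females, against 7.48, 7.599 and 7.71 in testosterone-implanted males, and a difference of 1.19 ± 0.12 (SE, adjusted p = 1.18e-05), again without overlap. Of the 2 called lower in the females, XM_002189308 differed by -0.61 ± 0.12 (SE, adjusted p = 0.00128) and ENSMMUT00000024123 by -0.59 ± 0.15 (SE, adjusted p = 0.00815). ENSMMUT00000024123 lost its call without testosterone-implanted female 4, with a difference of -0.498.

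The areas were compared in the groups that had not entered the selection in either. In breeding females, 2 of the 120 were called higher in HVC than in the entopallium and 30 lower, where 6.38% of all transcripts were called higher and 6.40% lower. The median difference over the 120 was -0.20, against -0.04 over all transcripts. In non-breeding males, 9 were called higher in HVC and 12 lower, where 6.23% and 6.66% of all transcripts were called, and the median was -0.05. Of the groups added after the levels had been seen, breeding males had 1 called higher in HVC and 24 called lower, with a median of -0.25. Of all transcripts, 6.40% and 7.51% were called. Testosterone-implanted males had 5 called higher and 16 called lower, where 6.43% and 6.95% of all transcripts were called, with a median of -0.05. Without the array of testosterone-implanted male 1 in HVC, the number called in this group was 18, of which 3 were higher. Over the 4 groups, 40 of the 120 were called lower in HVC in at least 1 group and 5 in all 4, against 11.7% and 3.44% of all transcripts. By contrast, 11 were called higher in at least 1 group and 1 in all 4, against 9.77% and 3.90% of all transcripts.

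XR_054733 and XM_002195293 had the largest differences between the areas. In breeding females, XR_054733 had levels of 6.40, 6.84 and 6.90 in HVC, against 8.85, 9.25 and 9.43 in the entopallium, with a difference of -2.47 ± 0.10 (SE, adjusted p = 4.42e-10). XM_002195293 had levels of 6.80, 6.86 and 7.44 in HVC, against 9.04, 9.26 and 9.60 in the entopallium, with a difference of -2.27 ± 0.13 (SE, adjusted p = 5.92e-09). The areas did not overlap for either transcript, and in the other 3 groups the differences were between -2.08 and -1.71 for XR_054733 and between -2.92 and -1.90 for XM_002195293. XM_002196611 ran the other way in breeding females, with levels of 7.92, 8.09 and 8.22 in HVC, against 7.26, 7.32 and 7.65 in the entopallium, and a difference of 0.71 ± 0.07 (SE, adjusted p = 3.24e-06). In testosterone-implanted females this transcript averaged 7.96 ± 0.17 in HVC and 8.49 ± 0.35 in the entopallium (SD, n = 6 each). The selection had limited the HVC level of this group, where the difference of the transcript to non-singing females was 0.25. Its order of the areas in this group is therefore a description.

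**Figure D5:**
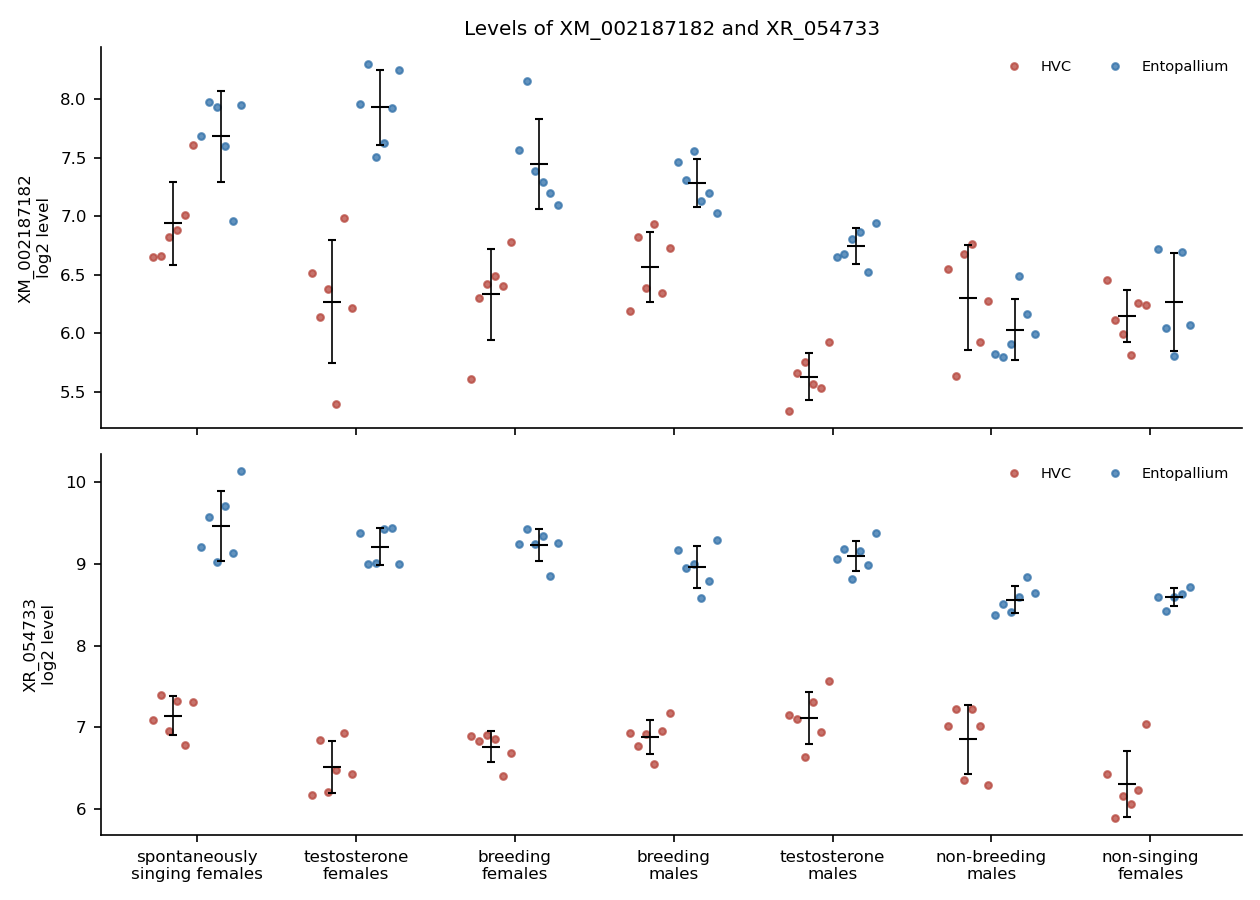
Log2 levels of XM_002187182 and XR_054733 in each canary array of HVC (red) and entopallium (blue), with the mean and SD of each group in black. XR_054733 is lower in HVC than in the entopallium in every group, whereas for XM_002187182 the areas overlap in spontaneous singers, non-breeding males and non-singing females and are apart in testosterone-implanted and breeding birds of both sexes. The selection limited the HVC levels of testosterone-implanted females.

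Differences between breeding males and breeding females mostly ran towards lower levels in males, in small numbers. Breeding males sang and breeding females did not, so that sex and song cannot be told apart here. In HVC, 2 of the 120 were called higher and 7 lower in breeding males than in breeding females, and the median difference over the 120 was -0.13. Of all transcripts, 2.10% were called higher and 1.23% lower. In the entopallium, 3 were called higher and 7 lower, where 2.29% and 0.955% of all transcripts were called, and the median was -0.17. The medians over all transcripts were 0.01 and -0.01. XM_002200611 had HVC levels of 8.28, 8.56 and 9.01 in breeding males, against 9.49, 9.59 and 9.66 in breeding females. The sexes did not overlap, and the difference was -0.99 ± 0.10 (SE, adjusted p = 1.73e-05). XM_002197361 had entopallium levels of 10.51, 10.73 and 11.05 in breeding males, against 11.32, 11.40 and 11.71 in breeding females, and a difference of -0.71 ± 0.10 (SE, adjusted p = 0.000214), also without overlap. Of those higher in breeding males, ENSTGUT00000004915 differed by 0.68 ± 0.13 in HVC (SE, adjusted p = 0.00242). In the entopallium, XM_002190172 was higher in breeding males by 0.54 ± 0.10 (SE, adjusted p = 0.00144).

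Few of the 120 transcripts differed between breeding and non-breeding birds in the cerebellum. Between breeding and non-breeding females, 2 rose and 0 fell, where 0.0691% of all transcripts were called in each direction, and 21 of the 120 had an unadjusted p under 0.05. Without any single one of breeding females 1 to 5 or of non-breeding females 1 to 5, 0 were called. XM_002190958 rose by 0.58 ± 0.10 (SE, adjusted p = 0.0337) and ENSTGUT00000008830 by 0.53 ± 0.10 (SE, adjusted p = 0.0364). Between breeding and non-breeding males, 0 were called, where 0.00767% of all transcripts were called higher and 0.00384% lower, and 6 of the 120 had an unadjusted p under 0.05. For the counts at an unadjusted p in both sexes, the share of all transcripts is not given. The median difference over the 120 was -0.06 in females and -0.004 in males.

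The identifiers of the 120 transcripts, which the selection had not used, were compared with those of other transcripts, as was their variation between arrays of groups outside the selection. Of their identifiers, 85 began with XM_, a share of 70.8% against 40.2% of all transcripts and 37.9% of the eligible ones, whereas 21 began with ENSTGUT, a share of 17.5% against 45.8% of all transcripts. A further 8 began with XR_, 2 with NM_ and 4 with other letters. Of the canary arrays of the entopallium, 30 had not entered the selection, although testosterone-implanted females among them had entered it in HVC. Over these 30 arrays, pairs of the 120 had a median Pearson correlation of 0.30, against 0.02 for pairs of eligible transcripts. These arrays include the group differences described above. Over all 155 arrays, 14 of the 7140 pairs had a correlation above 0.9, with 0.946 as the highest. Whether some of the 120 belong to the same gene could not be checked without gene names. Between arrays of a group, the median SD over the 120 was higher than that over all transcripts in each of the 21 groups outside the selection. The median SD over the 120 was between 0.16 and 0.30 in these groups, against 0.10 and 0.20 over all transcripts. The transcripts were not matched for level, and whether a selection by large differences favours variable transcripts was not tested.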

How the data were processed

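Total RNA from dissected brain areas was hybridised to a custom exon array with zebra finch probes. The authors deposited log2 levels of 26061 transcripts, already normalised between arrays. Affymetrix Expression Console is named in the submitters' notes, with neither its version nor its settings. There were no missing values, 0 of 385 pairs of arrays of a group were identical, and 0 columns were left without a sample. The number of arrays limits the precision. The labels call the arrays of a group biological replicates.

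Each comparison of 2 groups was fitted to these alone, and the interaction to its 4 groups, by limma (version 3.58.1, lmFit and eBayes, R version 4.3.3). P-values were adjusted over all transcripts by the Benjamini-Hochberg method. A transcript was called if the adjusted p was under 0.05 and the log2 difference was at least 0.5 in size. The code for the calls and for the selection was run on data with planted differences. Those planted for the selection were larger than any difference that chose the 120, and those planted for the calls all exceeded the limit of 0.5. These runs therefore check the code and do not measure how reliable the selection or calls near the limit are. The 120 transcripts and the comparisons were chosen with earlier results of these data known. The first 2 members in rank, and in each comparison at most 2 called higher and 2 called lower with the largest difference, are named. Gene lists and cell type markers that had been set could not be used without gene names. Alternatives were scaling to the same total intensity, quantile normalisation, removal of the 25% dimmest transcripts, the replicate number as a block, omission of each array, the bird as a random block for the interaction (added after the levels had been seen) and, for the selection, a level of at least 7 and no limit on the testosterone difference.

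HVC and entopallium arrays with the same replicate number came from the same bird, by the bird numbers in the labels, in breeding females, non-breeding males and testosterone-implanted males. The deviations of these pairs correlated at 0.06 to 0.24, -0.00 to 0.22 and -0.06 to 0.35.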

Additional observations from a re-analysis of the deposited data

Results flagged for a closer look

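The interaction term of breeding state and area in males was past the threshold for 12 of the 120 transcripts, all with the larger difference in the entopallium. Breeding males of HVC and of the entopallium were different birds, so that area and set of birds cannot be told apart there. With any single array left out, 9 to 13 were called, and with the bird as a random block 13.

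In 56 groups of values, the highest or lowest array was compared with the others by Dixon's criterion, and 6 had an array apart, where chance gives about 5% of the groups. The mean level of the 120 transcripts in the entopallium of testosterone-implanted males was 7.92 in the highest array, replicate 2. ENSTGUT00000017796 was at 7.55 in the lowest HVC array of spontaneous singers, and XM_002195870 at 7.72 in the highest entopallium array of non-breeding males. In the entopallium of breeding females, XM_002196611 was at 7.65 in the highest array, XM_002193398 at 6.98 in the lowest and XR_054733 at 8.85 in the lowest.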

How the results depend on the processing

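Of 296 values of counts and medians under the alternatives, 268 stayed within 1.5 times of the reported count or within 1 SD of the reported median. A level of at least 7 left 71 of the 120 transcripts in the selection, since 71 of them reach that level. Omission of single arrays left 103 to 118. In HVC of testosterone-implanted against non-breeding males, the 7 calls became 4 after quantile normalisation and 2 to 9 without single arrays, and in the entopallium the 5 calls became 5 to 9. In the female cerebellum, the 2 calls became 1 after quantile normalisation and 0 to 3 without single arrays. The replicate number as a block gave 0 calls in both this comparison and in HVC of testosterone-implanted males, where the numbers do not mark the same birds. It left the area comparisons, where they do, at 31 (breeding females), 21 (non-breeding males) and 21 (testosterone-implanted males). The cause of these shifts was not tested. Of 695 values for named transcripts, 76 lost the call and 0 changed sign. XM_002193398, called higher in HVC of breeding females, lost it under 8 of 16 alternatives. In non-breeding, breeding and testosterone-implanted males it was higher in HVC by 1.29, 1.40 and 1.12. In each of these male groups it kept the call under all 16 alternatives. Removal of the dimmest transcripts gave no value for XM_002187182 in HVC of testosterone-implanted males. Levels near the low end, where the arrays of spontaneous singers stood apart, limit all comparisons with this group.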

Other observations

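In the other species, which entered no comparison, the mean level of the 120 transcripts was 7.56 to 7.82 in the 12 HVC arrays of blue-capped cordon-bleus and 7.93 to 8.08 in their 12 entopallium arrays, without overlap. In forest weavers it was 7.63 to 7.87 in HVC and 7.71 to 7.88 in the entopallium, and the areas overlapped. The arrays carry zebra finch probes, and levels were not compared between species.

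The 6 spontaneous singers carry the same bird numbers in both areas. Their mean levels over the 120 transcripts did not have the same order, since the highest was replicate 4 in HVC (8.38) and replicate 6 in the entopallium (8.51).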
